A study of Mus musculus with 8 samples.

Results

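The 10 genes described here mark macrophages and microglia: *Lyve1*, *Aif1*, *Csf1r*, *C1qa*, *C1qb*, *C1qc*, *Mrc1*, *Cx3cr1*, *P2ry12* and *Tyrobp*. They were chosen by name, with earlier results of these data known. All 10 were found among the 28432 genes of the count table by the symbol written in each gene's label. Retinal RNA of 8 mouse embryos was sequenced at E15.5, each sample holding both retinas of 1 embryo. The 4 control embryos carried 1 floxed and 1 wild-type allele of *Lhx2*, the 4 CKO embryos 1 floxed and 1 null allele, and all 8 were heterozygous for CreERT2 inserted at the *Hes1* locus and were exposed to tamoxifen (0.15 to 0.2 mg per g of the dam's body weight by gavage) at E11.5. *Hes1* drives the recombinase in retinal progenitor cells, and 1 *Hes1* allele carries the insertion in both genotypes. The comparison asked how the RNA of these immune cell genes differed between control and CKO retinas.

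Microglia are the resident macrophages of the central nervous system, retina included. They descend from yolk sac progenitors rather than from the neural retina, enter the tissue during embryonic life, and need signaling through the receptor Csf1r to survive. They prune and clear dying cells during development. Related macrophages lie outside the neural tissue, along vessels, in the meninges and around the hyaloid vessels of the eye, and typically carry Lyve1 and Mrc1, whereas P2ry12 and Cx3cr1 are typical of microglia.

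Depth was 13143587 to 19099937 counted reads per sample. The first principal component of all genes tested separated the genotypes, and control replicate 3 and CKO replicate 1 lay at the ends of the second (scores -22.5 and 28.5). *Lyve1* and *Mrc1*, whose levels were extreme in these libraries, are also given without them. *Lhx2* itself ranged from 3081 to 3631 normalized counts in controls and from 2557 to 2868 in CKO retinas, but these are counted over the whole gene, undeleted exons too, and do not check the deletion. Markers of the retina were present at high levels in all samples (*Six3* at 4925 to 5780 and *Otx2* at 3234 to 4033 normalized counts). Normalized counts are counts divided by a size factor of each sample.

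Promoter sequences were found in RefSeq (GRCm38.p6) for 6 of the 10 genes, *Aif1*, *C1qb*, *C1qc*, *Mrc1*, *Cx3cr1* and *P2ry12*. Those of *Mrc1*, which held the most matches to the motif searched, and of the neighboring genes *C1qb* and *C1qc* are shown. Each runs 5′ to 3′ on the transcribed strand, from 250 bases before to 50 bases after the RefSeq start. They lie at chr2:14229164-14229463 (plus strand), chr4:136886151-136886450 (minus strand) and chr4:136892865-136893164 (minus strand), in that order. Capitals mark GAGGAA, the core bound by PU.1, the transcription factor of the macrophage lineage encoded by *Spi1*, or TTCCTC, the same core on the other strand.
Mrc1: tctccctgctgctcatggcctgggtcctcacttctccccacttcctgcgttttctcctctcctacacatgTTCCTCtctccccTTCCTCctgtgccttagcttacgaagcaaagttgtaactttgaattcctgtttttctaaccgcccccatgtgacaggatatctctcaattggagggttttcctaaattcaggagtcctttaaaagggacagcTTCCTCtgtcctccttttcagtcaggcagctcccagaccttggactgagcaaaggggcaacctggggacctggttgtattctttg
C1qb: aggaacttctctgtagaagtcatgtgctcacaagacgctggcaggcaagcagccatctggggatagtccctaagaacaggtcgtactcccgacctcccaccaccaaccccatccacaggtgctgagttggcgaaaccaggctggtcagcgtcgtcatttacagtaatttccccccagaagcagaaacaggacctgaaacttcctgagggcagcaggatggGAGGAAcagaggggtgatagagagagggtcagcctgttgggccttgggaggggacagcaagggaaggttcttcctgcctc
C1qc: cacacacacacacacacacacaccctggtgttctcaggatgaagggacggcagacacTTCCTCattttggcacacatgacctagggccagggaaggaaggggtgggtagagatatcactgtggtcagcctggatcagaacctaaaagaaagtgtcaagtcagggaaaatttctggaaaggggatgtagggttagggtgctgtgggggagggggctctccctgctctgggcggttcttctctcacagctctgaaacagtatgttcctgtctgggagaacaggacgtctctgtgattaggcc
The *Mrc1* window held 3 matches, the *C1qb*, *C1qc* and *Aif1* windows 1 each, and those of *Cx3cr1* and *P2ry12* held 0. Of 27025 promoters of the same length, 7652 (28.3%) held at least 1 match on either strand. The homeodomain core TAATTA, which reads the same on both strands, was in none of the 6 windows and in 1436 (5.31%) of all promoters. These matches are letters in a window and say nothing about binding.

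The macrophage and microglia genes divided by level difference into *Lyve1* and *Mrc1*, at 0.141 and 0.265 of their control level in the CKO, and 8 others between 0.698 and 0.909. Of the 10 genes, 1, *Lyve1*, passed the test (edgeR adjusted p below 0.001, the cutoff of the study), and it fell. None of the 10 rose. Of all 13891 genes tested, 4.97% fell, 3.64% rose and 8.61% changed in either direction. The log2FC (CKO over control) was below 0 for all 10, with a median of -0.33, against 49.2% of all genes tested and a median of 0.01. All 10 remained below 0 under each of 18 alternative settings. The 10 genes are read from the same 8 libraries and are not independent of each other. They were also chosen with earlier results of these data known, so their shared direction is a description and not a test. In RNA from whole retinas, fewer cells of a type and less RNA per cell cannot be told apart.

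**Figure D1:**
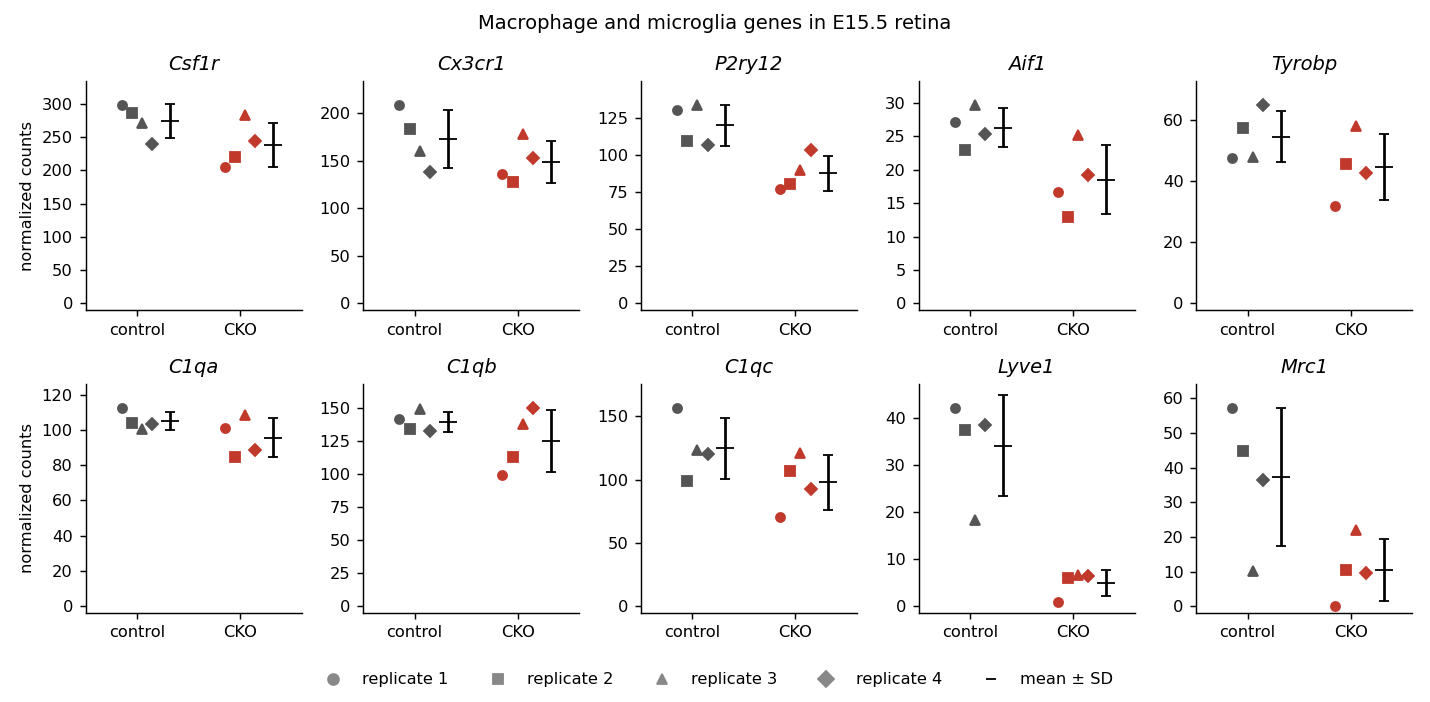
Normalized counts of the 10 macrophage and microglia genes (vertical axes, linear from 0) in 4 control and 4 CKO retina samples, 1 marker shape per replicate number, with the mean and SD beside each group. The CKO samples of *Lyve1* (0.794 to 6.56) lie below all controls (18.3 to 42.3), and those of *P2ry12* (77.1 to 103.5) lie just below the controls (106 to 134), while the other 8 genes overlap.

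*Lyve1* encodes a hyaluronan receptor of macrophages and lymphatic endothelium (ENSMUSG00000030787, chromosome 7, 110850607 to 110863239 of GRCm38, minus strand). It had levels of 42.3, 37.5, 18.3 and 38.5 normalized counts in the controls (replicates 1 to 4), against 0.794, 6.03, 6.56 and 6.40 for CKO retinas. The genotypes did not overlap: the lowest control, replicate 3, was above the highest CKO sample, and CKO replicate 1 was far below the other CKO samples. *Lyve1* fell from 34.1 ± 10.8 to 4.95 ± 2.78 normalized counts (mean ± SD, n = 4 each). Its log2FC was -2.83 with an SE of 0.432 (95% interval -3.77 to -1.88), and it passed at an adjusted p = 5.2e-04 by edgeR. These levels rest on 132 reads over the 4 controls and 20 over the 4 CKO samples, and the gene met the filter on low counts through control samples alone. The log2FC was -2.43 without CKO replicate 1 (adjusted p = 6.0e-04 by edgeR) and -3.02 without control replicate 3 (2.2e-04). Without any 1 of the other 6 samples *Lyve1* did not pass (log2FC -2.99 to -2.71, edgeR adjusted p from 0.0016 to 0.0024), nor did it by limma voom (adjusted p = 0.0015), with the embryo's sex as a covariate (adjusted p = 0.00101 by edgeR) or with a replicate block (adjusted p = 0.0022 by edgeR).

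*Mrc1* encodes the mannose receptor CD206, which takes up glycoproteins (ENSMUSG00000026712, chromosome 2, 14229392 to 14332057, plus strand). It gave 57.4, 44.8, 10.3 and 36.5 normalized counts in the 4 controls, taken in replicate order, and 0, 10.3, 21.9 and 9.60 in the CKO retinas. The 3 highest samples were controls, but control replicate 3 lay within the CKO range, and CKO replicate 1 had no read. Means were 37.2 ± 19.9 for controls and 10.5 ± 8.96 for CKO retinas (± SD, n = 4 each), with a log2FC of -1.92 (SE 0.645, 95% interval -3.33 to -0.50) that did not pass (adjusted p = 0.040 by edgeR; range over 18 alternatives 8.7e-04 to 0.15). Of its reads, 41 came from the 4 CKO retinas together. Without both control replicate 3 and CKO replicate 1, an alternative chosen after the data were seen, *Mrc1* passed (log2FC -1.75, adjusted p = 8.7e-04 by edgeR) and so did *Lyve1* (log2FC -2.63, 1.55e-05).

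*Lyve1* and *Mrc1* were both lowest in control replicate 3 among the controls and in CKO replicate 1 among the CKO samples. With each genotype's mean subtracted, their log2 levels had a Pearson r of 0.976 over the 8 samples, which are the same libraries for both. In CKO replicates 2 to 4 *Lyve1* was nearly level (6.03, 6.56 and 6.40 normalized counts) while *Mrc1* was at 10.3, 21.9 and 9.60. The r was not computed without control replicate 3 and CKO replicate 1, so it does not show that the genes vary together in the other samples. Reads of the 2 genes made up 8.15%, 7.63%, 2.74% and 7.46% of all reads of the 10 genes in the controls, in replicate order. For the CKO retinas, likewise in order, the shares were 0.108%, 2.03%, 2.76% and 1.76%. The exact binomial 95% interval was 1.78% to 4.01% in control replicate 3 and 1.81% to 4.02% in CKO replicate 3, for counting error only, so these samples could not be told apart, while the other 3 controls stood above every CKO sample.

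**Figure D2:**
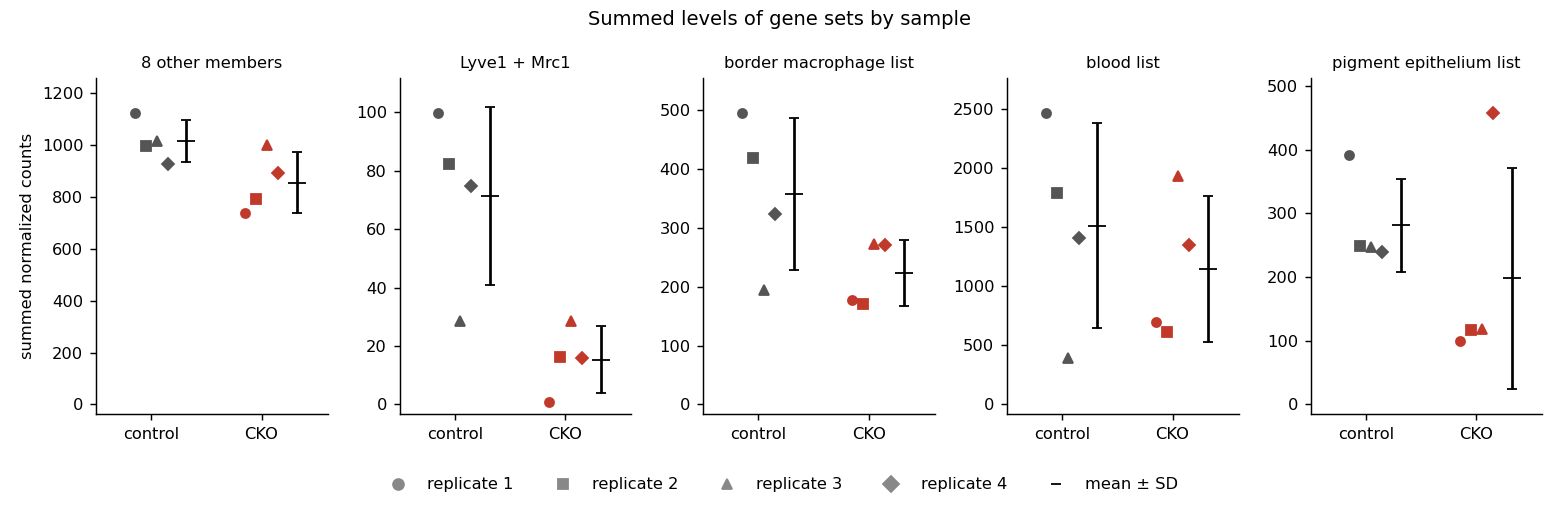
Summed normalized counts (vertical axes, linear from 0) of 5 gene sets in 4 control and 4 CKO samples, with mean and SD beside each group. The sum of *Lyve1* and *Mrc1* is 28.5 to 99.7 in controls and 0.794 to 28.4 in the CKO, control replicate 3 and CKO replicate 3 being nearly equal, whereas the 8 other genes overlap at 930 to 1123 and 737 to 1001, as do the border macrophage and blood lists. The pigment epithelium list overlaps through CKO replicate 4 alone (457), the other CKO samples lying at 100.1 to 118 and the controls at 239 to 391.

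Receptors of microglia came next. *P2ry12*, which encodes a purinergic receptor that guides microglial processes toward nucleotides (ENSMUSG00000036353, chromosome 3, 59216272 to 59262871, minus strand), had levels of 129.9, 109, 134 and 106 normalized counts in the controls (replicates 1 to 4), against 77.1, 80.1, 89.7 and 103.5 for CKO retinas. The genotypes did not overlap, but the gap between the lowest control and the highest CKO sample was small. Along with *Lyve1* it was 1 of 2 members of the 10 whose CKO samples lay wholly below the controls, as 17.9% of all genes tested did. Means were 119.8 ± 13.9 and 87.6 ± 11.9 (± SD, n = 4 each), and the log2FC of -0.45 (SE 0.131, 95% interval -0.74 to -0.17) did not pass (adjusted p = 0.020 by edgeR). At a cutoff of 0.05, 3 of the 10 genes, *Lyve1*, *Mrc1* and *P2ry12*, would count as lower, beside 17.4% of all genes tested.

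*Csf1r*, the receptor for Csf1 and Il34, gave 298, 285, 271 and 239 normalized counts in the 4 controls, taken in replicate order, and 205, 220.5, 282 and 243 in the CKO retinas. CKO replicates 3 and 4 lay within the control range and the other 2 below it. Its log2FC was -0.20 (SE 0.110, 95% interval -0.45 to 0.04, adjusted p = 0.18 by edgeR). *Cx3cr1*, the receptor of the neuronal chemokine Cx3cl1, ranged from 138 to 208 normalized counts in controls and from 128 to 178 in the CKO (log2FC -0.22, SE 0.145, 95% interval -0.54 to 0.10, adjusted p = 0.27 by edgeR). With each genotype's mean subtracted, *Csf1r* and *Cx3cr1* had a Pearson r of 0.911 over the 8 samples, close to that of *Lyve1* with *Mrc1*. Exons of *Csf1r*, *Cx3cr1* and *P2ry12* share 873, 78 and 9 bases with genes on the other strand (*Hmgxb3*, *Gm33858* and *Med12l*), and the library kit does not record strand, so reads there cannot be told apart.

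*C1qa*, *C1qb* and *C1qc* encode the 3 chains of C1q, the recognition molecule that starts the classical complement pathway and tags material for uptake. They lie side by side on the minus strand of chromosome 4, at 136895917 to 136898803, 136880129 to 136886187 and 136889804 to 136893065. *C1qa* had levels of 113, 104, 100.5 and 103 normalized counts in the controls (replicates 1 to 4), against 101, 84.4, 108 and 88.6 for CKO retinas. *C1qb* had 142, 134, 149.6 and 133 in controls and 99.3, 113, 138 and 150.5 in the CKO, in the same order of replicates. *C1qc* had 157, 98.9, 123 and 120.5 in controls and 70.7, 107, 121 and 92.8 in the CKO. All 3 overlapped between genotypes, and CKO replicate 1 had the lowest CKO level of *C1qb* and *C1qc* but not of *C1qa*. The log2FC values were -0.14 (95% interval -0.40 to 0.12), -0.16 (-0.45 to 0.12) and -0.36 (-0.75 to 0.03), with adjusted p = 0.40 by edgeR, 0.36 and 0.14. These intervals include no difference, and a fall of *C1qc* to 0.596 of control. *C1qa* made up 26.9% to 30.9% of the reads of the 3 chains in controls and 26.7% to 37.2% in the CKO.

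*Tyrobp* encodes DAP12, the transmembrane adaptor that carries signals of Trem2 and related receptors. It gave 47.3, 57.3, 47.9 and 64.8 normalized counts in the 4 controls, taken in replicate order, and 31.8, 45.7, 58.0 and 42.7 in the CKO retinas, with overlap through CKO replicate 3 (log2FC -0.30, SE 0.200, 95% interval -0.74 to 0.14, adjusted p = 0.28 by edgeR). *Aif1* encodes Iba1, the calcium-binding protein by which microglia are usually stained. It had 27.2, 22.9, 29.7 and 25.3 normalized counts in controls and 16.7, 12.9, 25.2 and 19.2 in the CKO, with CKO replicate 3 alone inside the control range (log2FC -0.52, SE 0.241, 95% interval -1.05 to 0.01, adjusted p = 0.12 by edgeR). Summed over the 8 genes other than *Lyve1* and *Mrc1*, levels were 1123, 996, 1015 and 930 normalized counts in controls and 737, 791, 1001 and 893 in the CKO. CKO replicates 1 and 2 were below every control, replicate 4 just below the lowest, and replicate 3 within the control range.

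**Figure D3:**
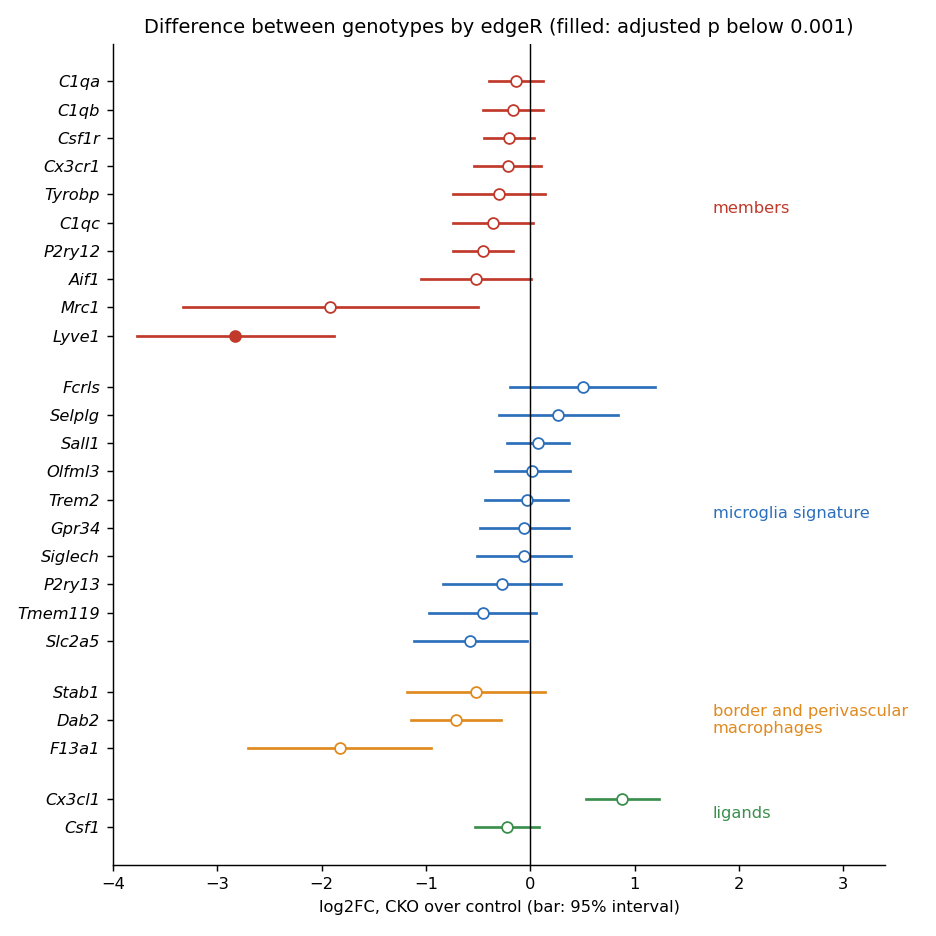
Log2FC of the CKO over control (horizontal axis, points) with 95% intervals (bars) by edgeR for the tested members and tested genes of 3 further lists (microglia signature, border and perivascular macrophages, ligands), 1 gene per line, filled where the adjusted p is below 0.001. *Lyve1* alone is filled, at -2.83, and the intervals of *Lyve1* and *Mrc1* reach lower than those of the 8 other members, whose lowest bound is -1.05.

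Per kb of exon, *C1qb* was the most abundant member and *Mrc1* the least. In controls the order, in normalized counts per kb, was *C1qb* (128 ± 7.13), *C1qa* (101 ± 5.10), *Tyrobp* (81.5 ± 12.5), *C1qc* (64.7 ± 12.4), *Csf1r* (47.3 ± 4.41), *P2ry12* (47.0 ± 5.47), *Cx3cr1* (38.2 ± 6.75), *Aif1* (17.2 ± 1.87), *Lyve1* (11.7 ± 3.69) and *Mrc1* (5.84 ± 3.13; SD, n = 4 each). The ranges of neighbors overlapped except between *C1qb* and *C1qa*, between *Cx3cr1* and *Aif1* and, narrowly, between *Aif1* and *Lyve1*. The CKO gave the same order, from *C1qb* at 115 ± 21.4 to *Lyve1* at 1.70 ± 0.952 and *Mrc1* at 1.64 ± 1.41, so that the last 2 genes were together at the bottom. With the longest transcript as the length, *Aif1* moved most in proportion (in the CKO from 12.1 to 21.1), and in controls *C1qc* moved from 64.7 to 104, above *C1qa* and *Tyrobp*, and *Csf1r* from 47.3 to 58.1.

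**Figure D4:**
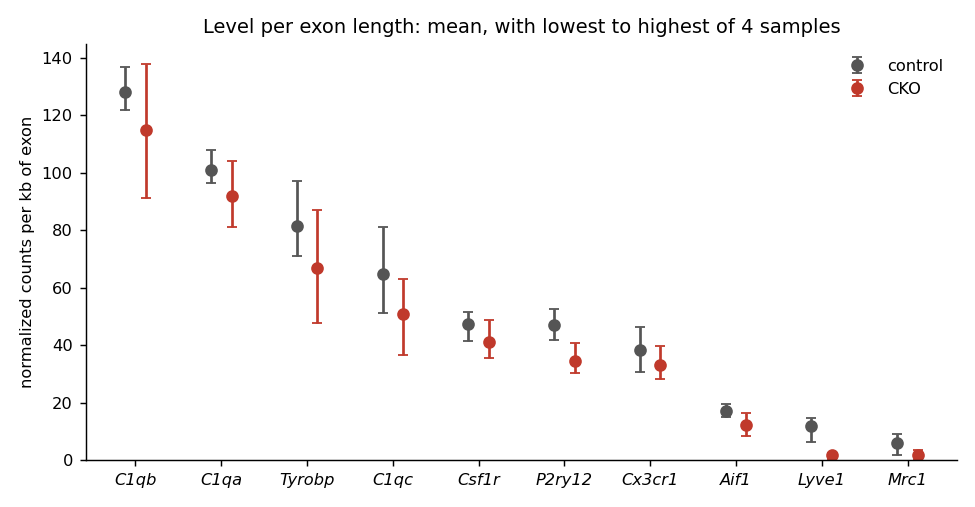
Normalized counts per kb of exon (vertical axis, linear from 0) of the 10 genes in order of their control level, as the mean (point) with the lowest and highest of 4 samples (bar) for each genotype. *C1qb* is highest in both genotypes (128 and 115), and the bars of control and CKO are apart for *Lyve1* (6.26 to 14.5 against 0.272 to 2.25) and *P2ry12* only.

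A wider set of 12 microglia signature genes showed no change that passed: of 11 tested, none rose or fell by edgeR at 0.001, and 1 would pass at a cutoff of 0.05. The 11 had a median log2FC of -0.06, and 7 were below 0. *Trem2*, the lipid receptor that signals through Tyrobp, had 27.1 to 36.5 normalized counts in controls and 29.3 to 37.2 in the CKO (log2FC -0.03, 95% interval -0.43 to 0.36), and *Tmem119* had 18.2 to 27.1 and 12.7 to 18.95 (log2FC -0.46, 95% interval -0.97 to 0.06). *Tmem119* met the filter on low counts through control samples alone. The log2FC was 0.07 for *Sall1*, -0.27 for *P2ry13*, -0.06 for *Gpr34*, -0.06 for *Siglech*, 0.50 for *Fcrls*, 0.02 for *Olfml3*, 0.27 for *Selplg* and -0.58 for *Slc2a5*, and *Tmem173* was under the filter. None of these 8 passed, and edgeR adjusted p-values ran from 0.096 to 0.94. Signs of log2FC values this close to 0 turned with the setting for *Sall1*, *P2ry13*, *Gpr34*, *Siglech*, *Trem2* and *Olfml3*.

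Genes of border and perivascular macrophages were mostly too low to test, with 3 of the 10 found in the table passing the filter. All 3 had log2FC values below 0 (median -0.72) but did not pass. *F13a1*, which encodes the A chain of coagulation factor XIII, had levels of 44.3, 32.3, 12.6 and 44.6 normalized counts in the controls (replicates 1 to 4), against 5.56, 12.9, 9.85 and 9.60 for CKO retinas (log2FC -1.83 with SE 0.399, adjusted p = 0.0046 by edgeR), with a narrow overlap. As with *Lyve1* and *Mrc1*, control replicate 3 was the lowest control and CKO replicate 1 the lowest CKO sample. *F13a1* met the filter on low counts through control samples alone, as *Lyve1* did. *Dab2*, an endocytic adaptor gene, had a log2FC of -0.72 (adjusted p = 0.016 by edgeR), and the scavenger receptor gene *Stab1* one of -0.52 (0.21). *Pf4*, under the filter, had 30.2, 38.5, 6.85 and 8.10 normalized counts in controls and 2.38 to 4.38 in the CKO, without overlap. Also under the filter, *Folr2* (7.99 to 14.1 against 6.56 to 18.3 normalized counts) and *Ms4a7* (2.28 to 10.1 against 2.59 to 7.66) overlapped widely. *Cd163* and *Timd4*, at 0 to 3.97 normalized counts, were near 0 in every sample.

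Of 18 tested pan-myeloid genes, none passed, with a median log2FC of -0.08. The 3 that would pass at 0.05 were *Cyba* (log2FC -0.59), *Plek* (0.36) and *Coro1a* (0.24), with adjusted p = 0.0054, 0.023 and 0.038 by edgeR. *Ptprc*, the leukocyte antigen CD45, had 20.3 to 22.8 normalized counts in controls and 18.1 to 23.0 in the CKO. *Ctss*, a lysosomal protease gene, had 143 to 158 and 139 to 165 (log2FC 0.04, 95% interval -0.17 to 0.25). Of 8 tested macrophage transcription factor genes, 1, *Maf*, rose (log2FC 1.33 with SE 0.110, adjusted p = 8.1e-06 by edgeR), with means ± SD of 227 ± 21.2 and 570 ± 75.5 normalized counts over 4 samples each, and it passed in all 18 alternatives. *Maf* is also known from neurons and lens. The other 7 did not pass, and among them the log2FC was 0.04 for *Irf8*, -0.49 for *Irf5*, -0.19 for *Runx1*, -0.28 for *Cebpa*, -0.28 for *Ikzf1* and 0.43 for *Mef2c*. *Spi1*, which encodes PU.1, had 7.29 to 19.4 normalized counts in controls and 13.1 to 23.5 in the CKO and was under the filter, as was *Cebpb*. The sign turned in some settings for *Irf8* and *Runx1*.

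Among the ligands of the members, *Cx3cl1*, the ligand of Cx3cr1, gave 54.4, 44.8, 76.5 and 59.7 normalized counts in the 4 controls, taken in replicate order, and 93.7, 119.7, 110.5 and 108.8 in the CKO retinas. Every CKO sample lay above every control, as in 15.9% of all genes tested. The log2FC of 0.88 (SE 0.159, 95% interval 0.53 to 1.23) missed the cutoff by edgeR (adjusted p = 0.0015) and passed it by DESeq2 (adjusted p = 6.9e-05). *Csf1*, the ligand of Csf1r, had 139.7 to 203 normalized counts in controls and 113 to 161 in the CKO (log2FC -0.23, interval from -0.53 to 0.08 at 95%, adjusted p = 0.24 by edgeR). *Il34*, its other ligand, was near 0, with 1 read over the 4 controls and 5 over the 4 CKO samples. Of 5 tested partners and downstream kinases of Tyrobp, none passed, and *Syk*, the kinase recruited by Tyrobp, had the smallest adjusted p (56.5 ± 7.31 against 27.6 ± 4.57 normalized counts, log2FC -1.03, adjusted p = 0.0013 by edgeR). *Syk* passed 0.001 by DESeq2 and with no filter, and in no other fit.

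Of 6 tested complement genes, 1 fell, *C1ql1*, a secreted C1q-like protein of synapses and no part of C1q (log2FC -1.01, adjusted p = 6.1e-04 by edgeR), and it did not pass when any 1 sample other than CKO replicate 1 was left out (edgeR adjusted p up to 0.0028). *C3* was under the filter, at 6.04 to 19.8 normalized counts in controls and 7.66 to 12.9 in the CKO. Of 11 tested genes of apoptotic cell clearance and restraint of macrophages, 2 fell, *Itgb5*, an integrin subunit gene (1178 ± 113 to 474 ± 93.2 normalized counts, log2FC -1.32, adjusted p = 1.6e-05 by edgeR), and *Mfge8*, which encodes a bridging protein that binds dying cells (590 ± 49.5 to 344 ± 37.7 normalized counts, log2FC -0.78, adjusted p = 7.6e-05 by edgeR). Both passed in all 18 alternatives. At a cutoff of 0.05, 4 genes of this list would count as lower and 2 as higher. The further lower ones were *Pros1* (log2FC -0.54) and *Cd47* (-0.20), with adjusted p = 0.0019 and 0.026 by edgeR. Those higher were *Megf10* (log2FC 0.47) and *Cd200* (0.34), with adjusted p = 0.0065 and 0.0013 by edgeR. Of 8 tested genes of phagocytic and activated microglia, none passed, and at a cutoff of 0.05 3 would count as lower and 2 as higher. The 3 with the smallest p were *Apoe*, a lipid carrier gene (log2FC -0.50), *Ctsd*, a lysosomal protease gene (-0.27), and *Igf1*, a growth factor gene (0.28), with adjusted p = 0.0052, 0.011 and 0.015 by edgeR and no overlap between the genotypes. Of all genes tested, 17.9% lay lower in the CKO without overlap and 15.9% higher. *Apoe* passed 0.001 by DESeq2, with no filter and without both control replicate 3 and CKO replicate 1. Control means of the 3 were 1160, 3203 and 748 normalized counts, against 273 for *Csf1r*. Which cells gave these reads was not tested.

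Markers of other tissues moved with the genotype in part. Of 4 tested pigment epithelium genes, 1, *Pmel*, fell (log2FC -1.75, adjusted p = 8.9e-05 by edgeR), and the other 3 had log2FC values below -0.9 without passing. None of the 4 overlapped between the genotypes, the CKO samples lying lower, as in 17.9% of all genes tested. Those other 3 met the filter through control samples alone. The sum over all 8 ranged from 239 to 391 normalized counts in controls and was 100.1, 116 and 118 in CKO replicates 1 to 3, below every control, and 457 in replicate 4, of which *Ttr* made up 379.9. Of 5 tested mesenchyme and pericyte genes 1, *Col1a2*, fell (log2FC -1.98, adjusted p = 4.5e-04 by edgeR), with sums of 538 to 729 and 566 to 1119. It did not pass without control replicate 1, 2 or 3 or CKO replicate 2 or 3 (edgeR adjusted p up to 0.0023). None of 6 tested blood genes passed, with sums of 389 to 2460 normalized counts in controls and 612 to 1932 in the CKO, and control replicate 3, low in *Lyve1*, *Mrc1*, *F13a1* and *Pf4*, was also the lowest control in blood genes. Of 9 tested endothelial genes 2 fell, *Kdr* (log2FC -0.48) and *Cldn5* (log2FC -1.55), both by edgeR (adjusted p = 2.6e-04 and 1.9e-04), while *Pecam1* and *Cdh5* had log2FC values of 0.05 and 0.09, and the sum ranged from 4431 to 4748 in controls and from 2703 to 3699 in the CKO, nearly all of it *Kdr*. *Kdr* did not pass without control replicate 4 (edgeR adjusted p = 0.0012). Its control mean was 4104 normalized counts, against 53.1 for *Pecam1* and 62.0 for *Cdh5*, and which cells gave the *Kdr* reads was not tested. Of 4 tested lymphatic genes, 1, *Pdpn*, rose (log2FC 0.61, adjusted p = 4.0e-05 by edgeR), sums were 5528 to 7849 and 6555 to 7709, most of it *Reln* and *Prox1*, which retinal cells also express, and the lymphatic chemokine gene *Ccl21a* was near 0 (0 to 2.38 normalized counts in all samples). Of 2 tested lens genes none passed (sums 33.4 to 73.5 and 52.6 to 102). The crystallin gene *Cryba1* had 3.04 to 12.1 normalized counts in controls and 21.5 to 58.0 in CKO retinas, without overlap (log2FC 2.83, adjusted p = 0.0013 by edgeR), and passed with no filter (adjusted p = 2.7e-07). It met the filter through CKO samples alone. No gene of monocytes and neutrophils, or of lymphocytes and mast cells, met the filter, and their sums stayed at or below 61.4 and 10.9 normalized counts in every sample. Of the 10 retina markers, 4 fell, *Rax*, *Six6* and *Hes5* among them, and 1 rose (*Pou4f2*). The part of these markers in the levels of *Lyve1* and *Mrc1* was not tested.

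The genes whose sample-to-sample pattern was most like that of the members were taken as those with the highest mean Pearson correlation with the 10 genes over the 8 samples, with each genotype's mean subtracted. They were *Ano1* (mean r 0.691), *Ggact* (0.684), *Myo1c* (0.678), *Afap1l1* (0.675), *Ppic* (0.667), *Usp43* (0.667), *Tor4a* (0.666), *Pdia5* (0.665), *Dapp1* (0.656) and *Sdc2* (0.654). None of these belonged to any of the 18 other lists. Among the 8 members other than *Lyve1* and *Mrc1*, the 28 pairs had a median r of 0.473 and a range of -0.0761 to 0.911, and the 16 pairs of *Lyve1* or *Mrc1* with these 8 had a median of 0.51. *Tyrobp* had an r of 0.748 with *Lyve1* and 0.787 with *Mrc1*. These are descriptions over libraries that all the genes share.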

How the data were processed

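Poly(A) RNA libraries from the retinas of 8 embryos, 4 per genotype, were sequenced by the authors in 50 cycles from 1 end with a kit that does not record strand, aligned to mm10 with TopHat 2 and counted per gene with HTSeq. Cufflinks is a further tool in the submitters' processing notes. What the authors deposited, and what was used, are raw counts per gene, neither normalized nor pooled. Not given in the sources used here: tool versions, strand setting and annotation release. Columns were matched to samples by the description label. Embryos came from 3 litters over 2 days, and no source used here ties samples to them, so litter and day could not be tested. Replicates of 1 genotype differed by more than sampling noise (chi-square per gene 3.54 to 20.8).

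In R 4.3.3, the study's filter (20 or more normalized counts in 3 or more samples) was applied before the quasi-likelihood test of edgeR 4.0.16 (TMM scaling, genotype as the only term) and Benjamini-Hochberg adjustment over all 13891 genes, at 0.001. Standard errors were derived from the log2FC and its F statistic. DESeq2 1.42.0, limma 3.58.1 (voom), other scalings and filters, a cutoff of 0.05, a replicate block, the embryo's sex (read from *Xist*) and leaving out each sample were alternatives, and the test was checked on simulated data. Control replicates 1 and 4 and CKO replicate 1 read as female (*Xist* counts 31307, 33220 and 62937, against 13 to 40 in the others). Within the CKO, sex can therefore not be told apart from the other traits of replicate 1. Exon lengths and positions are from GENCODE M21 (GRCm38, the assembly mm10 names), in which all 10 genes were found by identifier, and promoters are from RefSeq GRCm38.p6. The 10 genes and the 18 other lists were chosen with earlier results of these data known. Of the other lists, named genes are all microglia signature genes, transcription factors and ligands, and up to 5 of each remaining list with the smallest p-values. *Pf4*, *Cd163*, *Timd4*, *C3*, *Ccl21a*, *Ptprc*, *Ctss*, *Folr2*, *Ms4a7*, *Ttr*, *Cdh5*, *Pecam1*, *Six3* and *Otx2* were named after their values were seen where that rule did not take them. Values of some list genes are left out of the text and plots.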

Additional observations from a re-analysis of the deposited data

Results flagged for a closer look

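A sample was marked where its gap to the nearest of the other 3 samples of its genotype passed Dixon's critical value at 95%. Of 192 groups of 4 samples examined over the genes named by rule and the sums of the members, 8 were marked, and chance marks about 1 in 20. Of the 10 macrophage and microglia genes 1 was marked: *Lyve1* in CKO replicate 1, at 0.794 normalized counts against 6.03 to 6.56 in the other CKO samples. Among microglia signature genes, *Tmem119* in CKO replicate 1 was at 12.7 normalized counts against 18.1 to 18.95, and *Fcrls* in control replicate 3 at 26.3 against 58.7 to 61.4. *Il34* had 1.01 normalized counts in control replicate 1, a single read, and 0 in the other controls. Among markers of other tissues, *Cldn5* was at 202 in control replicate 3 against 153 to 158, *Kdr* at 2480 in CKO replicate 1 against 3040 to 3150, *Eng* at 89.6 in control replicate 1 against 28.5 to 37.5, and *Cryba1* at 12.1 in control replicate 1 against 3.04 to 3.43.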

How the results depend on the processing

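The 7 members other than *Lyve1*, *Mrc1* and *P2ry12* kept their direction and did not pass in any of the 18 alternatives. *Lyve1* kept its direction in all 18 and lost its call in 9: limma voom (log2FC -2.98), sex as a covariate (-2.80), a replicate block (-2.82) and 6 of the 8 fits with 1 sample left out (range over the 8, -3.02 to -2.43). *Mrc1* passed with no filter (-1.91, where 2 members passed), with a cutoff of 0.05 (-1.92, 3 members with *P2ry12* at -0.45) and without both control replicate 3 and CKO replicate 1 (-1.75, 2 members), the last chosen after the data were seen. With 1 sample left out, 0 to 1 members passed, and 0 with limma voom, the sex covariate or the block.

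Over all genes, 1196 passed, against 2271 by DESeq2, 2055 with no filter, 4619 at 0.05, 676 with the replicate block, 2070 without those 2 libraries and 687 to 1559 with 1 sample left out. In the other lists 14 genes passed, against 24 by DESeq2, 27 with no filter and 40 at 0.05. Replicate numbers share only a number: same-numbered samples had correlations of deviations of 0.142, -0.154, 0.0633 and -0.116, so the block was not used as a pairing.

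Directions that turned, all in genes that did not pass: *Olfml3* by limma voom (-0.014), with library totals (-0.0077) and with sex (-0.0036), and, without both libraries, *P2ry13* (0.059), *Siglech* (0.089), *Irf8* (-0.0072) and *Runx1* (0.026). With 1 sample left out, log2FC ran from -0.018 to 0.15 for *Sall1*, -0.13 to 0.074 for *Gpr34*, -0.11 to 0.024 for *Siglech*, -0.11 to 0.021 for *Trem2*, -0.14 to 0.12 for *Olfml3*, -0.020 to 0.12 for *Irf8* and -0.38 to 0.012 for *Runx1*. The cause of these changes was not tested. The low counts of *Lyve1* and *Mrc1* limit the precision of their fold changes.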
